A study of Rattus norvegicus with 12 samples.

Results

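Voltage-gated calcium channel subunits were followed here through the 10 genes of the Cacna1, Cacna2d and Cacnb families that were asked for by name: Cacna1a, Cacna1b, Cacna1c, Cacna1d, Cacna1g, Cacna2d1, Cacnb1, Cacnb2, Cacnb3 and Cacnb4. Every probe set whose only gene symbol in the platform annotation was one of these was taken, which gave 19 of the 15866 probe sets other than controls on the array. A probe set is a group of short probes designed to one transcript or a group of transcripts. RNA came from the CA1 field of the hippocampus of young male Long-Evans rats aged 3 to 4 months, as 12 samples with 1 Affymetrix RAE230A array each. Both groups had been trained in a standard water maze 2 to 3 weeks before and then swam 8 trials, spaced by 8 minutes, in another maze. In the control task group (6 arrays) the visible platform moved between trials and the surroundings held no orienting cue. In the spatial learning group (6 arrays) orienting cues were present and the visible platform kept its place. A 90-second probe trial without a platform came 1 hour after training in both groups, and the rats were killed directly afterwards, so no group of untrained rats enters the comparison. The labels call the arrays biological replicates without saying that each was a separate animal, so the p-values measure the spread between these samples.

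These channels let calcium into neurons when the membrane depolarises. The alpha1 subunit is the pore and the voltage sensor, and its gene sets the current type. Cacna1c and Cacna1d encode L-type channels, which in pyramidal cells sit on dendrites and cell bodies and carry calcium signals towards the nucleus. Cacna1a and Cacna1b encode the P/Q-type and N-type channels that trigger transmitter release at presynaptic terminals. Cacna1g encodes a T-type channel, which opens at small depolarisations and can work without the auxiliary subunits that the other types need. The beta subunits (Cacnb1 to Cacnb4) are cytoplasmic proteins that bind the other alpha1 types, carry them to the membrane and tune their gating, and the alpha2-delta subunit (Cacna2d1) is an extracellular auxiliary protein that binds gabapentin.

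Subunit signals in CA1 ranged from bright to near the floor of the array. Of the 19 probe sets, 11 had a mean of at least 4 on the log2 scale over the 12 arrays and were tested, and 8 were dimmer and were not. All 5 probe sets of Cacnb1, Cacnb2 and Cacnb3 were tested, whereas of the 12 alpha1 probe sets 5 were. By mean signal (log2) the order was Cacnb3 at 9.09, Cacna2d1 at 8.80, the brightest Cacnb2 probe set at 8.58, the brighter Cacna1b probe set at 7.99, Cacnb1 at 7.64, a second Cacnb2 probe set at 7.18, the brightest Cacna1d probe set at 6.61, Cacna1g at 6.40 and the brightest Cacna1a probe set at 5.99. Neighbours in this order overlapped over the 12 arrays except at 2 steps, between the brightest Cacnb2 probe set and Cacna1b and between the second Cacnb2 probe set and Cacna1d. Cacnb3 stood at the 85.2 percentile of all probe sets on the array. Signals of different probe sets depend on how well their probes bind, so this is an order of signals and not of transcript amounts. The probe sets of 1 gene show how far this goes, since those of Cacna1b differed by 5.21 in mean signal and those of Cacnb2 by up to 4.12.

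**Figure D1:**
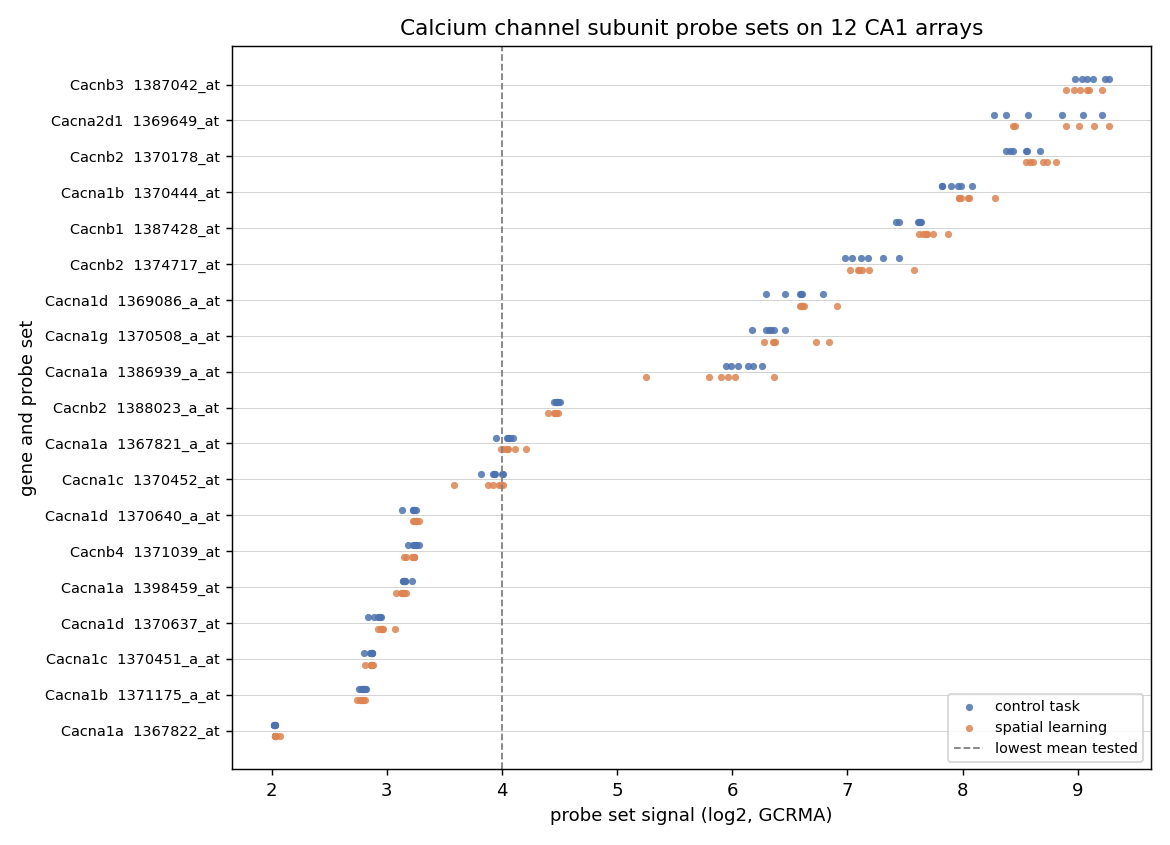
Signal (log2, x axis) of each of the 19 calcium channel subunit probe sets (rows, ordered by mean) on the 12 arrays, blue for the 6 control task and orange for the 6 spatial learning arrays, with a dashed line at the lowest mean tested, 4. Points of 1 row stay close together, the widest spread being in Cacna2d1 and in Cacna1a 1386939_a_at, and the groups overlap in every row.

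Cacnb4 and Cacna1c had no tested probe set. Cacnb4, the beta subunit whose loss causes the lethargic mouse, averaged 3.24 ± 0.03 over control arrays and 3.21 ± 0.04 over spatial learning arrays (SD, n = 6 each, log2). The 2 probe sets of Cacna1c had means of 3.91 and 2.85, the first just under the level of 4. The other dim probe sets belonged to genes that also had a brighter one: 2 of Cacna1a at 3.15 and 2.03, 1 of Cacna1b at 2.79 and 2 of Cacna1d at 3.23 and 2.94. Dim probe sets barely moved between arrays, the median distance of the 8 from their own median being 0.002 to 0.060 per array. Scarce transcripts and weak probes cannot be told apart from these values, and a dim signal says nothing about the protein.

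No calcium channel subunit passed the test between the groups. Of the 11 tested probe sets 0 had a limma adjusted p under 0.05, against 0% of the 9610 probe sets tested on the whole array. With 8 higher and 3 lower, their median difference, spatial learning minus control task, was 0.10 on the log2 scale, and the median over all tested probe sets was 0.0079. The differences ran from -0.21 to 0.17, which is 0.86 to 1.12 times the control signal. An unadjusted limma p under 0.05 was reached by 2 of 11 (18.2%), both beta subunits and both higher, beside 10.9% of all tested probe sets, 6.36% higher and 4.55% lower. The exact rank-sum test also gave 2 of 11, beside 9.32% of all tested probe sets, and so did the exact permutation test, beside 11.3%. In 0 of the 11 were the arrays of the groups fully apart, beside 0.635% of all tested probe sets. Several of the 11 come from 1 gene, 3 from Cacnb2 and 2 from Cacna1a, and all come from the same 12 arrays, so the counts are not of independent items.

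Cacnb2 gave the smallest limma p of the family, on 1 of its 3 probe sets, whereas by the exact permutation and rank-sum tests Cacnb1 gave the smallest. Cacnb2 encodes the beta subunit best known from the L-type channel of heart muscle, and it is also made in the hippocampus. Probe set 1370178_at ranged from 8.38 through a median of 8.49 to 8.67 in the control task group, and from 8.55 through 8.66 to 8.81 in the spatial learning group (log2). All 6 spatial learning arrays lay above the control mean and 3 above the highest control, control replicate 6. That control also had the highest mean of the CA1 marker genes (log2, described below) in its group, 10.91. Spatial learning replicate 6, the lowest of its group at 8.55, also had the lowest CA1 marker mean there, 10.67. Control replicate 2 was the lowest of its group in both, at 8.38 and 10.61. Spatial learning replicate 5, the highest of its group at 8.81, had a CA1 marker mean of 11.01, just under the 11.04 of replicate 1. The order was not shared throughout, since control replicate 5 stood at 8.41 with a CA1 marker mean of 10.70. A link between the probe set and the CA1 markers was not tested. The means were 8.50 ± 0.11 and 8.67 ± 0.10 (SD, n = 6 each). The difference was 0.16 (SE 0.06, 95% interval 0.04 to 0.29; limma p = 0.0164, limma adjusted p = 0.427; exact permutation p = 0.026, adjusted 0.428).

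The remaining Cacnb2 probe sets gave smaller differences in the group comparison, and no test between probe sets was made. Probe set 1374717_at ran from 6.98 to 7.45 with a median of 7.15 in the control task group and from 7.02 to 7.58 with a median of 7.12 in the spatial learning group. Its difference was 0.01 (95% interval -0.21 to 0.22; limma adjusted p = 0.991), and it ran from -0.0728 without spatial learning replicate 1 to 0.0588 without control replicate 6. With the hexokinase gap, an RNA integrity measure, as a covariate it was 0.15, beside 0.21 for 1370178_at in the same fit. That gap hardly overlapped between the groups, so the fit separates it poorly from the group. Spatial learning replicate 1, at 7.58, stood apart from the rest of its group, whose highest was 7.19. Probe set 1388023_a_at, near the tested minimum at 4.48 and 4.46, differed by -0.02 (95% interval -0.09 to 0.05). With group means subtracted, the probe sets correlated over the 12 arrays at r = 0.41 for the brighter pair and -0.59 for 1370178_at with 1388023_a_at. Without control replicate 6 and spatial learning replicate 5 these were 0.22 and -0.04, so both are given only as a description. Averaged over its 3 probe sets, Cacnb2 stood at 6.72 ± 0.08 and 6.77 ± 0.08 (SD, n = 6 each; exact permutation p = 0.312).

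RefSeq places 2 starts of Cacnb2 123577 bases apart, and the array does not say which start the RNA came from. The 250 bases before each are shown for that reason, from the GRCr8 build (Brown Norway rat), 5′ to 3′ on the plus strand, with capitals marking matches on either strand to the GC box GGGCGG and to TGACG, the core of the cAMP response element.
Cacnb2 first start, chr17:82472965-82473214: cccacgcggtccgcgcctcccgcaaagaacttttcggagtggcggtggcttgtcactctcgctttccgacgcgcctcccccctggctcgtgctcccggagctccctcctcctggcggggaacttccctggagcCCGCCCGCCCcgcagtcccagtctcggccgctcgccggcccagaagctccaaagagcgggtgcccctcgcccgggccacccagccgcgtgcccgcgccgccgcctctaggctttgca
Cacnb2 second start, chr17:82596542-82596791: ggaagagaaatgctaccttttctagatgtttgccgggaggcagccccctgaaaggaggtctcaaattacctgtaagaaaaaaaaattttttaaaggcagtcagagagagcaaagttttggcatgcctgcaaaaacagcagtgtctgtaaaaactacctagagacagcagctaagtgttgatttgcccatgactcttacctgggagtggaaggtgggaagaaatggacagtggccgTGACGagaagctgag
The first window is 73.2% G and C with 30 CpG dinucleotides and 2 GC box matches, which overlap each other. The second is 45.6% G and C with 3 CpG dinucleotides, 0 GC boxes and 1 such core. The median of all 33469 windows of this length was 51.2% G and C with 5 CpG dinucleotides. GC boxes occur in 30.5% of them, the core TGACG in 18.2% and the full element TGACGTCA, absent from all 10 windows of the 7 members that have one, in 1.59%. A letter match is a description and shows no binding.

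Cacnb1 was the other beta subunit with an unadjusted p under 0.05. It encodes the beta subunit that assembles with the skeletal muscle channel and is made in brain as a separate splice form. Its probe set 1387428_at ran from 7.42 through a median of 7.61 to 7.64 in the control task group, and from 7.62 through 7.68 to 7.87 in the spatial learning group. Of the 6 spatial learning arrays 5 lay above the highest control, and replicate 3 lay within the control range. The means were 7.56 ± 0.10 and 7.71 ± 0.09 (SD, n = 6 each). The difference was 0.15 (SE 0.06, 95% interval 0.02 to 0.27; limma p = 0.0259, limma adjusted p = 0.429; exact permutation p = 0.00866, adjusted 0.371). The unadjusted limma p was 0.0606 without control replicate 1, 0.0602 without control replicate 6, 0.0579 without spatial learning replicate 5 and 0.0685 without control replicates 3 and 6 and spatial learning replicate 6 together.

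Cacnb3, the beta subunit with the brightest signal here and the one often found with the N-type channel, differed by -0.08. Its values ran from 8.98 through 9.11 to 9.27 in the control task group and from 8.90 through 9.05 to 9.21 in the spatial learning group. The groups overlapped, and 2 arrays of the spatial learning group lay under every control array. The 95% interval of the difference was -0.21 to 0.06 (limma adjusted p = 0.684; exact permutation p = 0.247). Its array-to-array spread within groups, a residual SD of 0.11, stood at the 43.5 percentile of tested probe sets. The beta subunits therefore stood at 0.16 for the brightest Cacnb2 probe set, 0.15 for Cacnb1 and -0.08 for Cacnb3, and no test between them was made.

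**Figure D2:**
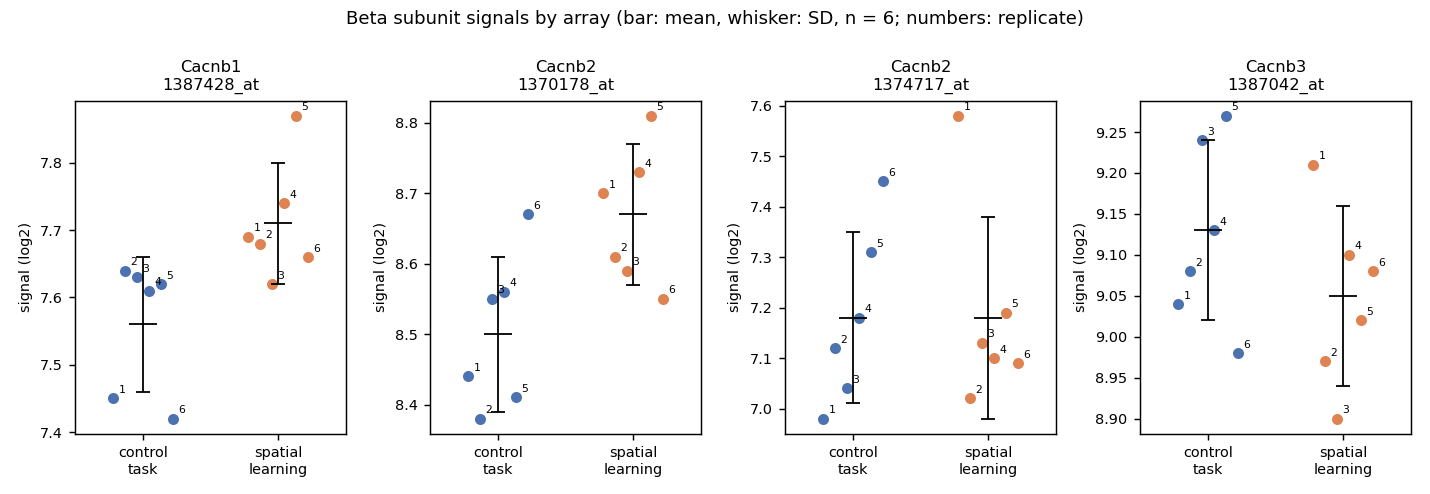
Signal (log2, y axis, a separate range in each panel) of Cacnb1, 2 Cacnb2 probe sets and Cacnb3 in the 6 control task (blue) and 6 spatial learning (orange) arrays, with replicate numbers, group means as bars and SDs as whiskers. Spatial learning arrays lie towards the top in Cacnb1 and Cacnb2 1370178_at, with overlap, while the means of Cacnb2 1374717_at are 7.18 in both groups.

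Among the presynaptic pore genes, the brightest probe sets of Cacna1b and Cacna1a differed in opposite directions, neither past the test. Their other probe sets differed little. Cacna1b 1370444_at ran from 7.82 through 7.93 to 8.08 in the control task group and from 7.97 through 8.02 to 8.28 in the spatial learning group. All 6 spatial learning arrays lay above the control mean, and only replicate 1, at 8.28, above the highest control. The difference was 0.12 (95% interval -0.02 to 0.26; limma adjusted p = 0.517; exact permutation p = 0.0844). It was 0.08 without that array and 0.15 without control replicate 5, the latter with an unadjusted limma p under 0.05 (adjusted 0.569). Its dim second probe set differed by -0.01.

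Cacna1a had the lowest difference of the family on its brightest probe set, 1386939_a_at. The control task arrays ran from 5.95 through 6.09 to 6.26 and the spatial learning arrays from 5.25 through 5.93 to 6.36. The spread was 0.12 in the first group and 0.36 in the second (SD, n = 6 each), where replicate 3 was the lowest and replicate 5 the highest of all 12. The difference was -0.21 (95% interval -0.52 to 0.09; limma adjusted p = 0.611; exact permutation p = 0.212). It was -0.31 without spatial learning replicate 5 with an unadjusted limma p under 0.05 (limma adjusted p = 0.509) and -0.09 without spatial learning replicate 3. The second tested Cacna1a probe set, 1367821_a_at at 4.05 and 4.07, differed by 0.02 (95% interval -0.07 to 0.12).

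Cacna1d and Cacna1g, an L-type and a T-type pore gene, stood at 0.10 and 0.17, within the spread of the arrays, while the dim L-type gene Cacna1c stood at -0.05 and 0.01 on its 2 probe sets. Cacna1d 1369086_a_at ran from 6.29 through 6.59 to 6.79 in the control task group and from 6.59 through 6.61 to 6.91 in the spatial learning group. In the latter 5 arrays lay within 0.03 of each other and replicate 1 stood apart. The difference was 0.10 (95% interval -0.08 to 0.28; limma adjusted p = 0.686; exact permutation p = 0.297), and it was 0.05 without spatial learning replicate 1 and also without control replicate 6. A dim second probe set, 1370637_at, differed by 0.06, with 5 of 6 spatial learning arrays above the highest control, in a fit without the level filter (limma adjusted p = 0.501; exact permutation p = 0.0216). Cacna1g 1370508_a_at ran from 6.17 through 6.33 to 6.46 in the control task group and from 6.28 through 6.36 to 6.84 in the spatial learning group. Replicates 4 and 5, at 6.73 and 6.84, lay above all controls and the other 4 spatial learning arrays within the control range. The difference was 0.17 (95% interval -0.04 to 0.38; limma adjusted p = 0.552; exact permutation p = 0.171), and 0.10 without spatial learning replicate 5. A probe set that the annotation gives to Cacna1h, 1368398_at, carries a transcript accession that RefSeq now assigns to Cacna1g. It was kept out of the members and was dim, at 2.78.

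Averaging all probe sets of a gene, dim ones included, gave differences of -0.05 for Cacna1a (exact permutation p = 0.26), 0.05 for Cacna1b (exact permutation p = 0.13), -0.02 for Cacna1c (exact permutation p = 0.76) and 0.06 for Cacna1d (exact permutation p = 0.0671). For Cacna1a, Cacna1b and Cacna1d these are nearer 0 than the difference of the brightest probe set. That follows from averaging in probe sets with smaller differences, most of them dim, and is no separate evidence.

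Cacna2d1, the alpha2-delta subunit, was the member that varied most between arrays. Its values ran from 8.27 through 8.72 to 9.21 in the control task group and from 8.44 through 8.96 to 9.27 in the spatial learning group. The residual SD of 0.36 within groups stood at the 97.5 percentile of tested probe sets. High and low arrays occurred in both groups, with control replicates 3 and 6 at 9.05 and 9.21 and spatial learning replicates 3 and 6 at 8.44 and 8.46. The difference was 0.15 (95% interval -0.25 to 0.55; limma adjusted p = 0.81; exact permutation p = 0.483). Without control replicates 3 and 6 and spatial learning replicate 6, the arrays with the most choroid plexus or meningeal signal, it was 0.43, with an unadjusted limma p under 0.05 (limma adjusted p = 0.379). Leaving out 1 array at a time moved it between 0.06, without control replicate 2, and 0.24, without control replicate 6.

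**Figure D3:**
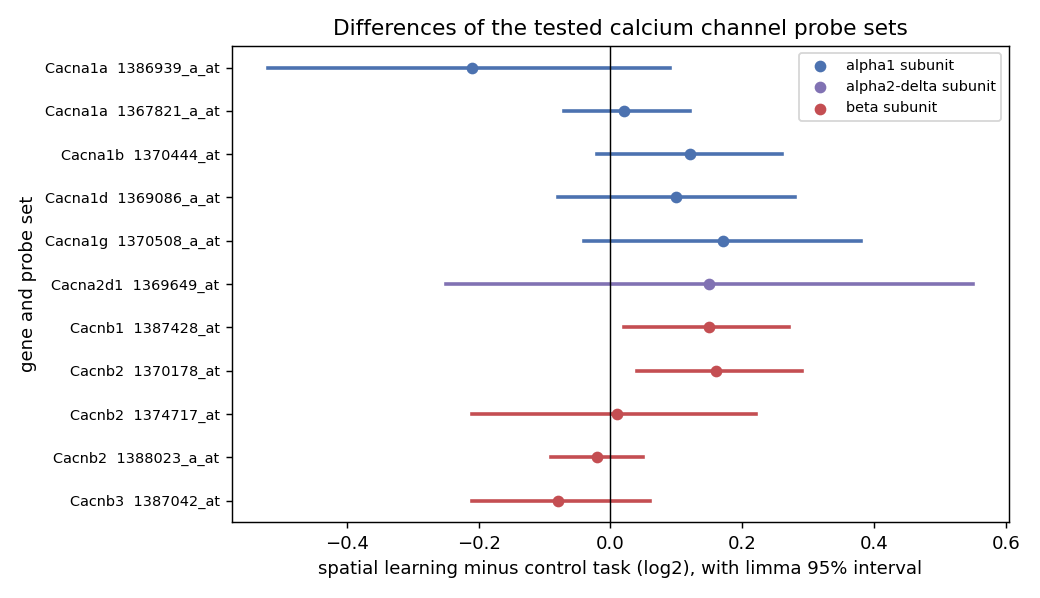
Difference between spatial learning and control task (log2, x axis) of the 11 tested probe sets (rows), with points for the difference, lines for limma's 95% interval and colours for the subunit class. The intervals of Cacnb1 and of Cacnb2 1370178_at lie above 0 before adjustment, and the other 9 include 0.

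Few members moved together from array to array once group means were subtracted. Of the 55 pairs among the 11 tested probe sets, 0 had a correlation with an adjusted p under 0.05. The highest was Cacna1b with Cacnb2 1374717_at, at Pearson r = 0.79 (permutation p = 0.00409, adjusted 0.196) and Spearman rho = 0.64 (permutation p = 0.0278, adjusted 0.306) over 12 arrays. It was 0.50 without the 2 arrays farthest from the median of Cacna1b, so part of it rests on those. Cacna1g and Cacnb1 followed at r = 0.72 (permutation p = 0.00714, adjusted 0.196) and rho = 0.65 (permutation p = 0.0259, adjusted 0.306), and at 0.59 without spatial learning replicates 4 and 5. The beta subunits with the smallest p values, Cacnb1 and Cacnb2 1370178_at, correlated at r = 0.14 (permutation p = 0.669, adjusted 0.937) and rho = -0.01 (permutation p = 0.991, adjusted 1). As a description over the same 12 arrays, again with group means subtracted, the genes whose brightest probe set ran closest to Cacnb3, of 6866 compared, were Mrpl51 at r = 0.95, Tnrc6a at 0.90 and Slc7a8 at 0.89. Those closest to Cacnb2 1370178_at were Vldlr at 0.93, Atp2b1, a plasma membrane calcium pump, at 0.91 and Wipf3 at 0.88. These were the highest of all genes compared, on 12 arrays that share 1 normalization.

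Other genes of calcium entry and signalling were taken from 4 lists, each gene by its brightest probe set, and 0 of their members passed (limma adjusted p). Of 16 further genes named as channel subunits 6 were tested, 4 higher and 2 lower, with a median of 0.01. Cacng3, Cacng7 and Cacng8, whose products are AMPA receptor auxiliary proteins despite their channel names, stood at 0.37, 0.05 and -0.39. Cacng3 (limma adjusted p = 0.388) was alone in this list with an unadjusted limma p under 0.05. Cacna1i, another T-type pore gene, stood at -0.15. Of 31 proteins that bind or regulate the channels 19 were tested, 7 higher and 12 lower, with a median of -0.06 and 0 with an unadjusted p under 0.05. Among these Rims2 and Stx1a, an active zone scaffold and a release syntaxin that bind presynaptic calcium channels, both stood at -0.16. Lrp1 and Gnb5 stood at 0.09 and 0.07. At an unadjusted limma p under 0.05, 10.9% of all tested probe sets were called. Here it was 1 of 6 in the first list and 0 of 19 in the second.

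Of 28 genes for calcium stores, pumps and buffers 14 were tested, 9 higher and 5 lower, with a median of 0.04. Atp2a2, the calcium pump of the endoplasmic reticulum, stood at 11.73 ± 0.05 and 11.64 ± 0.03 (SD, n = 6 each), a difference of -0.09 that alone in this list had an unadjusted limma p under 0.05. Ryr2, a calcium release channel, stood at -0.16, Atp2b1 at 0.15 and the sodium-calcium exchanger Slc8a1 at 0.09. Of 28 calcium effector genes 19 were tested, 9 higher and 10 lower, with 2 in each direction at an unadjusted limma p under 0.05. These were Camk2a at 0.59 and Ppp3ca, a calcineurin subunit, at 0.07, and Creb1 at -0.32 and Camk4 at -0.53. The 4 of 19 here and the 1 of 14 in the stores list are to be read beside the 10.9% of all tested probe sets. Both lists were chosen with earlier results known.

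**Figure D4:**
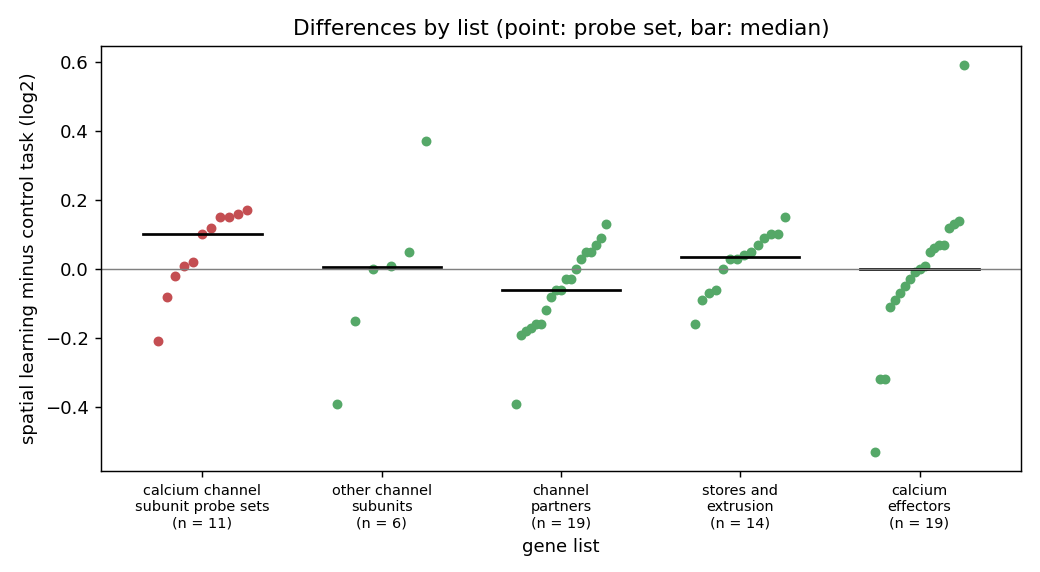
Difference between spatial learning and control task (log2, y axis) for the 11 calcium channel subunit probe sets (red) and for the tested genes of the 4 calcium lists (green), with the median of each as a bar. The medians lie between -0.06 and 0.10, and the widest spread is among the calcium effectors.

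Correlations over all probe sets were 0.996 to 0.998 between any pair of arrays, which does not exclude differences in tissue content. Marker genes are given as a description and cannot check the tissue label, since signals of different probe sets are not comparable. All 6 tested CA1 markers were bright. Their mean per array ran from 10.61 to 10.91 in the control task group and 10.67 to 11.04 in the spatial learning group. All 6 were higher after spatial learning (median 0.20), 3 with an unadjusted limma p under 0.05, beside 6.36% of all tested probe sets called higher. All 4 tested dentate markers were lower (median -0.23), with per-array means of 6.43 to 7.06 and 6.35 to 6.72. Astrocyte markers were lower in 9 of 10 (10.55 to 10.68 and 10.47 to 10.63), microglial in 7 of 8 (7.38 to 7.90 and 7.32 to 7.68), oligodendrocyte in 6 of 8 (10.47 to 10.86 and 10.49 to 10.89), CA3 in 5 of 8 (7.58 to 7.86 and 7.55 to 7.88), neighbouring brain regions in 5 of 6 (6.03 to 6.28 and 5.79 to 6.11) and vessel in 5 of 8 (6.19 to 6.54 and 6.07 to 6.39). Interneuron markers were higher in 5 of 9 (8.53 to 8.76 and 8.61 to 8.85). Choroid plexus markers, 3 tested, ran to 9.49 in control replicate 3 and to at most 6.05 in the spatial learning group, and meningeal markers, 6 tested, to 7.95 in control replicate 6 and 7.70 in spatial learning replicate 6. The choroid markers Folr1, F5, Kl, Cldn2, Otx2 and Aqp1 and the meningeal markers Col1a2, Col3a1, Lum and Fmod lay below the tested level, and 1 blood gene, Hbb, was lower by 0.38. At an unadjusted limma p under 0.05 there were 1 higher and 2 lower of 8 CA3 markers. Of 9 interneuron and 8 oligodendrocyte markers 1 each was higher. Lower was 1 each of 4 dentate, 6 neighbouring region, 10 astrocyte, 8 microglial, 3 choroid plexus and 1 blood markers. Among 8 vessel and 6 meningeal markers there were 0. These counts stand beside 6.36% higher and 4.55% lower of all tested probe sets, and 0 markers had an adjusted p under 0.05. The gap between the 3′ and 5′ probe sets of the hexokinase control, a measure of RNA integrity, was 1.35 to 1.55 in the control task group and 1.55 to 1.82 in the spatial learning group. With that gap as a covariate the difference was 0.35 for Cacna1g, 0.20 for Cacna1d, 0.19 for Cacna1b and 0.0043 for Cacnb3. The ranges of the gap meet only at 1.55, so this fit separates the gap poorly from the group. The part of these marker and RNA quality differences in the calcium channel values was not tested beyond the alternatives given. In whole tissue, fewer cells of a type and less RNA per cell cannot be told apart.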

How the data were processed

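RNA from 12 CA1 samples had been hybridised to Affymetrix RAE230A arrays, and groups and replicate numbers came from the sample titles. The deposited table holds log2 probe set summaries made by the authors with GCRMA, per the submitters' processing notes, which corrects background by probe sequence, normalizes between arrays and summarises probes. The sources used here give neither version nor settings. That the authors' values are log2 was settled from their range, 0.134 to 14.8. GCRMA hides shifts in total RNA and compresses dim signals. Scan dates were not used here, so no batch was tested, and the number of arrays limits the precision.

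Members, gene lists, tests and alternatives were chosen with earlier results of these data known. Probe sets were named by the platform annotation supplied with the table, and the Entrez identifier gave the same symbol in RefSeq (GRCr8) for all 19 member probe sets. Of 15866 probe sets other than the 57 controls, the 9610 with a mean of at least 4 entered the model (limma 3.58.1, R 4.3.3: lmFit, eBayes with intensity trend, group only, 2-sided, Benjamini-Hochberg over all tested, threshold 0.05). SEs are moderated. Probe sets below the filter come from a fit without it. Exact permutation tests, 2-sided, used all 924 splits of the arrays, and correlations 100000 permutations, adjusted over 55 pairs. Named genes were all members, the 2 with the smallest limma p in each direction per calcium list, and the 3 closest in pattern to the brightest member and to the one with the smallest limma p. The fit was tested on simulated independent values with changes of 0.5 and 1.0 (log2). It recovered 84.8% and 96.9% of the changed probe sets and called 13 unchanged ones. These changes are larger than any member difference, and shifts shared by an array were not simulated, so recovery of the member differences was not tested. Alternatives were no filter, a filter at 6, eBayes without trend or robust, quantile normalization again, median centring, an exact rank-sum test, the replicate block, the hexokinase gap as a covariate, 3 arrays left out together, each array left out, and means over the probe sets of a gene. Protein sequences were not used here.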

Additional observations from a re-analysis of the deposited data

Results flagged for a closer look

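In 10 of the 38 groups of 6 values (19 probe sets in both groups), 1 array stood apart, its gap to the nearest other taking up more of the group's range than Dixon's 95% critical value allows. Chance alone would mark about 5% of such groups, but the probe sets share the same arrays. Spatial learning replicate 1 was high in Cacna1b 1370444_at (8.28, nearest 8.06), Cacna1d 1369086_a_at (6.91, nearest 6.62) and Cacnb2 1374717_at (7.58, nearest 7.19). Spatial learning replicate 5 stood apart in 4 dim probe sets: Cacna1a 1367822_at at 2.07, Cacna1c 1370451_a_at at 2.81, Cacna1c 1370452_at at 3.58 and Cacna1d 1370637_at at 3.07. This array also lay farthest from the others over all probe sets below the tested level, with a median distance of 0.030 against 0.002 to 0.020 on the other 11. Control replicate 6 was high in Cacna1a 1398459_at (3.22) and low in Cacna1c 1370451_a_at (2.80), and control replicate 5 was low in Cacna1d 1370640_a_at (3.13). Of the 10, 7 concern probe sets below the tested level, where the groups span 0.04 to 0.43, and the reason was not tested.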

How the results depend on the processing

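In the 22 other fits 0 member probe sets passed an adjusted p of 0.05, and 0 genes of the calcium lists did in those or with the mean over a gene's probe sets. The smallest member adjusted p in any was 0.181, for Cacnb2 1370178_at without control replicates 3 and 6 and spatial learning replicate 6, where its difference was 0.24. With an unadjusted p under 0.05, 2 probe sets counted. Leaving out 1 array gave 1 to 3 in all, beside 8.11% to 11.9% of all tested probe sets, 1 to 3 higher and 0 to 1 lower, the lower one being Cacna1a 1386939_a_at without spatial learning replicate 5. Cacnb2 1370178_at kept its unadjusted p under 0.05 in all 22, Cacnb1 in all but the 4 named with its values. With the hexokinase gap as covariate 3 counted, beside 605 (6.3%) of the 9610 tested probe sets against 1048 (10.9%) without it, Cacna1g joining at 0.35 and Cacnb1 and Cacnb2 1370178_at standing at 0.22 and 0.21 (limma adjusted p 0.759 to 0.774), and Cacnb3 turned to 0.0043. The covariate also moved Cacna1b to 0.19, Cacna1d to 0.20 and Cacnb2 1374717_at to 0.1488, the highest of its alternatives. It hardly overlapped between the groups, which limits what this fit can show. Among differences near 0, Cacna1a 1367821_a_at ran from -0.0037 to 0.0391 and Cacnb2 1374717_at from -0.0728 to 0.0588 with 1 array left out; the other 8 kept their sign in every fit. The values showed no pairing by replicate number: same-numbered arrays correlated at -0.17 to 0.08 in their deviations, and 1 of 6 matched its own number best. Such correlations cannot exclude that same-numbered samples were handled together, which the labels do not state. The replicate block gave 0 adjusted and 2 unadjusted calls, beside 769 (8%) unadjusted calls of all tested probe sets.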
